A study of Ovis aries with 16 samples.

Results

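The insulin-like growth factor (IGF) system was followed through 10 of the 28524 gene rows of the deposited table: the ligands IGF1 and IGF2, the growth hormone receptor GHR, the IGF receptor IGF1R, the carrier subunit IGFALS and the binding proteins IGFBP1, IGFBP2, IGFBP3, IGFBP4 and IGFBP5. The members were chosen by gene symbol, and all 10 were present. The data were RNA-sequencing libraries of liver, sampled at the left lobe's tip, and of the vastus lateralis, a thigh muscle, from 8 female Suffolk sheep, 4 whose mothers had been given bisphenol A (BPA), a plasticizer with oestrogen-like activity, and 4 whose mothers had been given the corn oil vehicle (C). The mothers received BPA subcutaneously at 0.5 mg/kg per day, or vehicle alone, over days 30 to 90 of gestation. The daughters were sampled at about 21 months, fasted for 48 hours, with the oestrous cycle synchronized by prostaglandin F2α and tissue taken 24 hours after the second injection. Fasting and synchronization therefore applied to controls and exposed animals alike. Each of the 4 groups (control liver, BPA liver, control muscle, BPA muscle) held 4 libraries from 4 animals, and each animal gave both tissues. Values are normalized read counts: reads per gene divided by 1 scaling factor per library. They were compared between libraries for the same gene and not between genes, since transcript lengths were not used.

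The IGF system carries the growth signal of pituitary growth hormone. Growth hormone binds GHR, above all in liver, and raises transcription of IGF1 and of IGFALS, the acid-labile subunit. In blood most IGF travels in a complex with IGFALS and IGFBP3, while smaller binding proteins hold the rest and govern how much reaches IGF1R, the tyrosine kinase receptor of target tissues such as muscle. IGFBP1 is the member best known for rising with fasting and falling with insulin. IGF2 is an imprinted gene, and IGFBP5 is the binding protein typical of muscle and connective tissue.

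Liver libraries held 4.39 to 19.28 M reads (M, 1e+06) and muscle libraries 15.15 to 28.54 M. The labelled tissues carried their own markers: the muscle fibre list (14 of 15 genes present) summed to at most 1093 in any liver and to at least 6.67e+06 in any muscle. The livers were unequal. Hepatocyte markers (17 of 18 genes present) summed to 97410 in the control liver of animal 902, and to 1.58e+06, 1.71e+06 and 1.75e+06 in the controls 908, 924 and 928. They summed to 1.78e+06 in the BPA liver 910 and to 578132, 400203 and 371805 in the BPA livers 918, 977 and 984. The fibroblast and stellate cell list (12 of 12) summed to 122370 in 902 and to 2769 to 8282 in the other 7 livers. The cholangiocyte (bile duct cell) list (7 of 7) summed to 12834 in 902 and to 394 to 980 in the other 7 livers. The liver labelled control 902 thus stood apart from the other controls, and 910 from the other BPA livers, and results on BPA in liver are given with and without them. In bulk tissue, fewer cells of a type and less RNA per cell cannot be told apart.

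**Figure D1:**
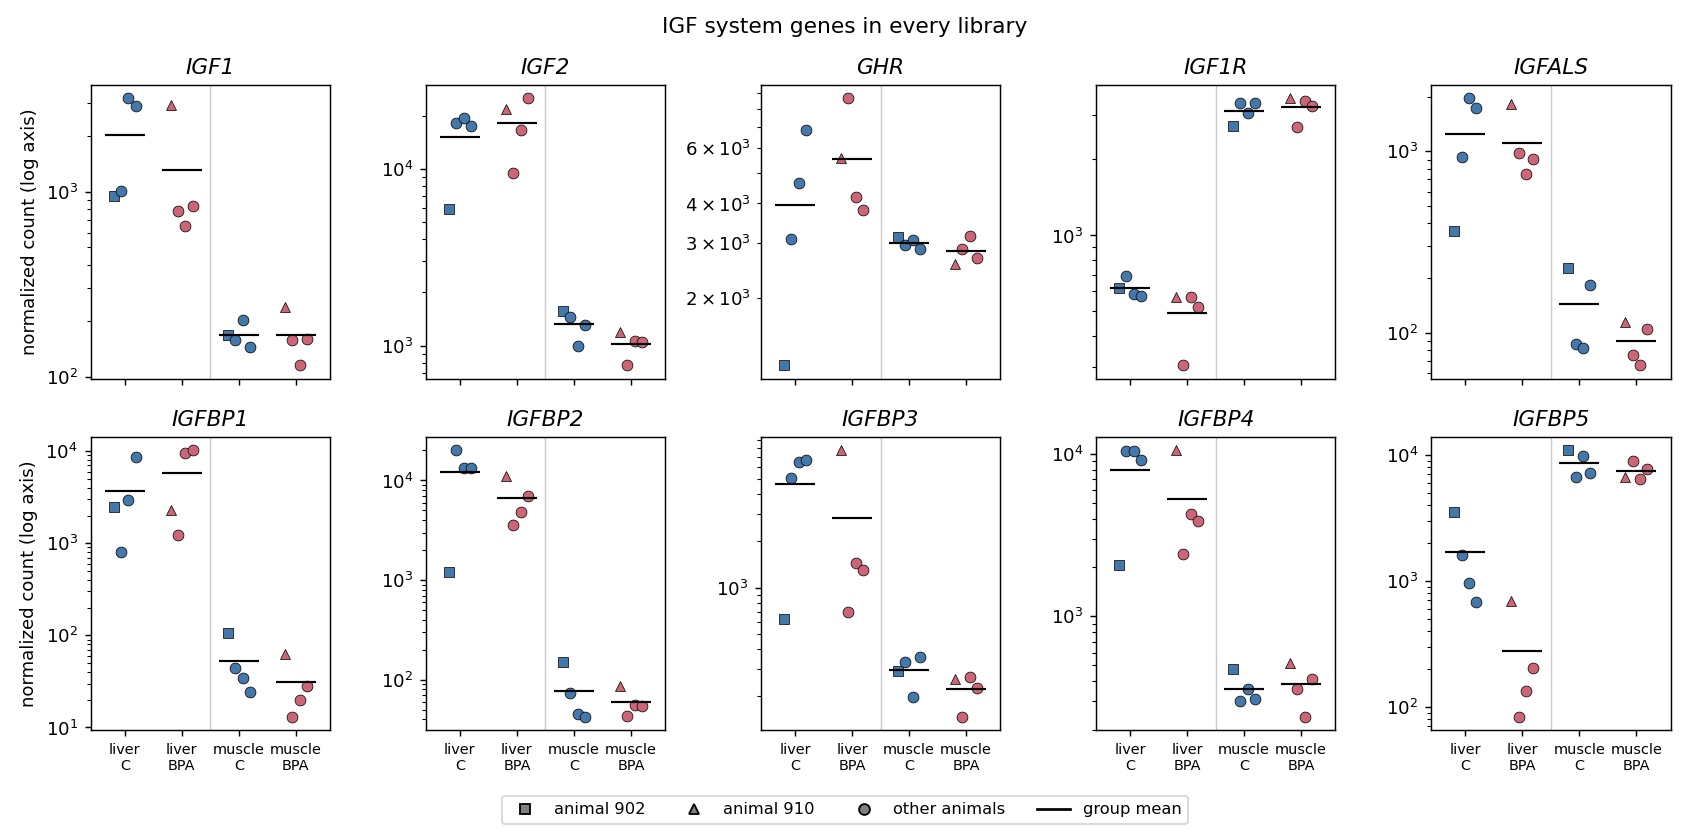
Normalized count of each gene (log axis) in all 16 libraries by tissue and treatment, with group means as lines, animal 902 as squares and animal 910 as triangles. IGF1R and IGFBP5 sit higher in muscle (all muscle libraries at or above 2697 and 6410), the other genes except GHR sit higher in liver, and 902 and 910 lie at the edge of several liver groups.

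Tissue was the main axis of difference. Of the 10 genes, 7 were higher in liver and 2 higher in muscle at an adjusted p under 0.05 (limma), with GHR between them. Over all genes tested, 36.1% passed as higher in liver and 35.3% as higher in muscle, so passing this test was common. The median difference of the 10 genes was 3.29 on the log2 scale, beside 0.06 over all 15995 genes tested.

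Among the ligands, IGF1 measured 948, 1006, 3193 and 2913 in control livers 902, 908, 924 and 928, and 2925, 789, 655 and 837 in BPA livers 910, 918, 977 and 984. In muscle it lay between 115 and 238, with a median of 159. Every liver was above every muscle, and the livers fell into a higher set of 3 and a lower set of 5 that mixed both treatments. The liver minus muscle difference of IGF1 was 3.03 log2 units (SE 0.33, adjusted p 4.3e-07). IGF2 measured between 5960 and 25147 in liver (median 17872) and between 774 and 1579 in muscle (median 1127). Every liver was again above every muscle, and the IGF2 difference was 3.74 (SE 0.26, adjusted p 2.0e-09).

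The receptors went another way. IGF1R lay between 306 and 691 in liver (median 573) and between 2697 and 3495 in muscle (median 3302), a liver minus muscle difference of -2.54 log2 units (SE 0.14, adjusted p 1.2e-10). GHR lay between 1217 and 8670 in liver (median 4416) and between 2567 and 3138 in muscle (median 2904). The tissues overlapped for GHR, and its coefficient of variation was 48.3% over livers and 7.06% over muscles. The GHR difference of 0.53 (95% interval -0.07 to 1.12, adjusted p 0.10) missed the threshold. It passed without animal 902 (0.78, adjusted p 0.0036, 36.4% of genes passing as higher in liver), with edgeR (0.73, adjusted p 0.025, 40.5%) and with DESeq2 (0.69, adjusted p 0.021, 38.5%).

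Among the carriers, IGFALS lay between 366 and 1966 in liver and between 66.0 and 226 in muscle, a difference of 3.27 log2 units (SE 0.34, adjusted p 2.5e-07). IGFBP3, the main blood carrier, lay between 627 and 7755 in liver and between 147 and 356 in muscle, a difference of 3.30 (SE 0.50, adjusted p 2.2e-05). IGFBP4, which binds IGF until the protease pappalysin cuts it, lay between 2065 and 10572 in liver and between 241 and 519 in muscle, a difference of 3.93 (SE 0.35, adjusted p 3.9e-08). For these 3 carriers every liver was above every muscle.

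IGFBP1 and IGFBP2 had the widest tissue gaps of the 10. IGFBP1 lay between 800 and 10325 in liver (median 2707) and between 13 and 107 in muscle (median 31.2), a difference of 6.55 log2 units (SE 0.54, adjusted p 1.6e-08). IGFBP2 lay between 1206 and 20285 in liver (median 9017) and between 42.5 and 150 in muscle (median 55.2), a difference of 6.77 (SE 0.48, adjusted p 2.8e-09). The intervals of both differences overlapped (5.4 to 7.69 and 5.74 to 7.80), and both lay above those of the other 8 genes.

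IGFBP5 ran opposite to IGFBP1, IGFBP2, IGFBP3 and IGFBP4. It measured 3524, 1614, 954 and 675 in control livers 902, 908, 924 and 928, and 686, 83.3, 133 and 205 in BPA livers 910, 918, 977 and 984. In muscle it lay between 6410 and 10974 (median 7428), above every liver. The liver minus muscle difference was -3.91 log2 units (SE 0.38, adjusted p 1.4e-07). By the gene order of the RefSeq assembly ARS-UI_Ramb_v3.0, IGFBP5 and IGFBP2 are adjacent protein-coding genes, as are IGFBP3 and IGFBP1. The first pair thus differed between tissues in opposite directions (6.77 and -3.91) and the second in the same direction (3.30 and 6.55).

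**Figure D2:**
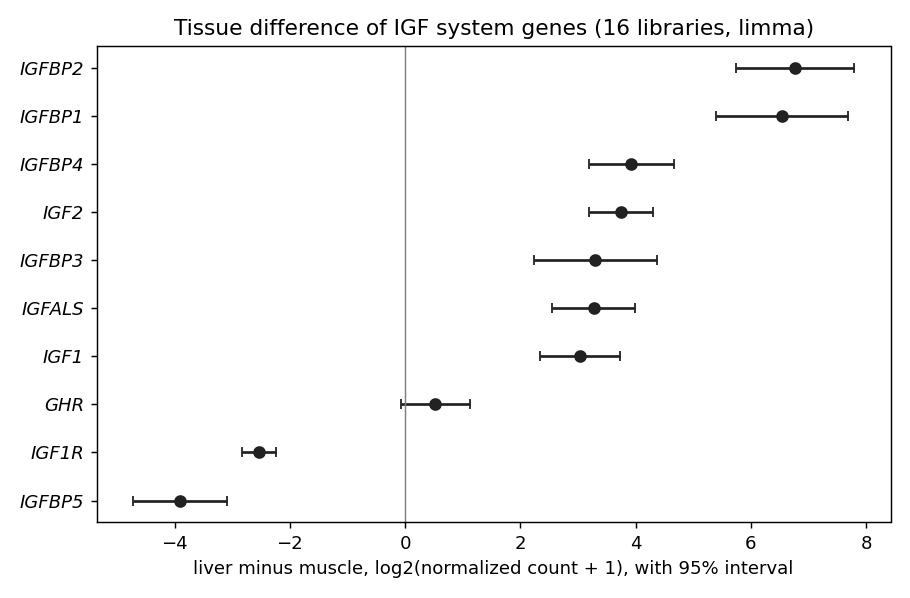
Liver minus muscle difference on the log2(normalized count + 1) scale for each gene, with its 95% interval from the limma fit over 16 libraries, ordered by size. IGFBP2 and IGFBP1 lie farthest to the liver side (6.77 and 6.55), IGF1R and IGFBP5 to the muscle side (-2.54 and -3.91), and the interval of GHR includes 0.

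Hepatocyte transcripts were also measured in the muscle libraries. The 17 hepatocyte markers had muscle means of 0.586% to 2.11% of their liver means (median 0.994%), with albumin (ALB) at 1.16%. None of the 17 was at 0 in any muscle library. IGFBP1 (0.874%) and IGFBP2 (0.741%) fell inside that range. IGFBP4 (5.59%), IGFBP3 (6.90%), IGF2 (7.01%), IGFALS (9.89%) and IGF1 (10.1%) lay above it, and GHR stood at 61.0%. IGF1R and IGFBP5 stood at 571% and 819%. The muscle of control 902 was highest of the 8 muscles for the hepatocyte sum (19321), for IGFBP1 (107, from 88 reads) and for IGFBP2 (150, from 123 reads). The BPA muscle 918 was lowest for the hepatocyte sum (6300) and for IGFBP1 (13, from 17 reads). IGFBP2 was instead lowest in the control muscle 928 (42.5), whose hepatocyte sum was 13745, with 918 next (43.7). The part of this hepatocyte signal in the muscle IGFBP1 and IGFBP2 levels was not tested.

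**Figure D3:**
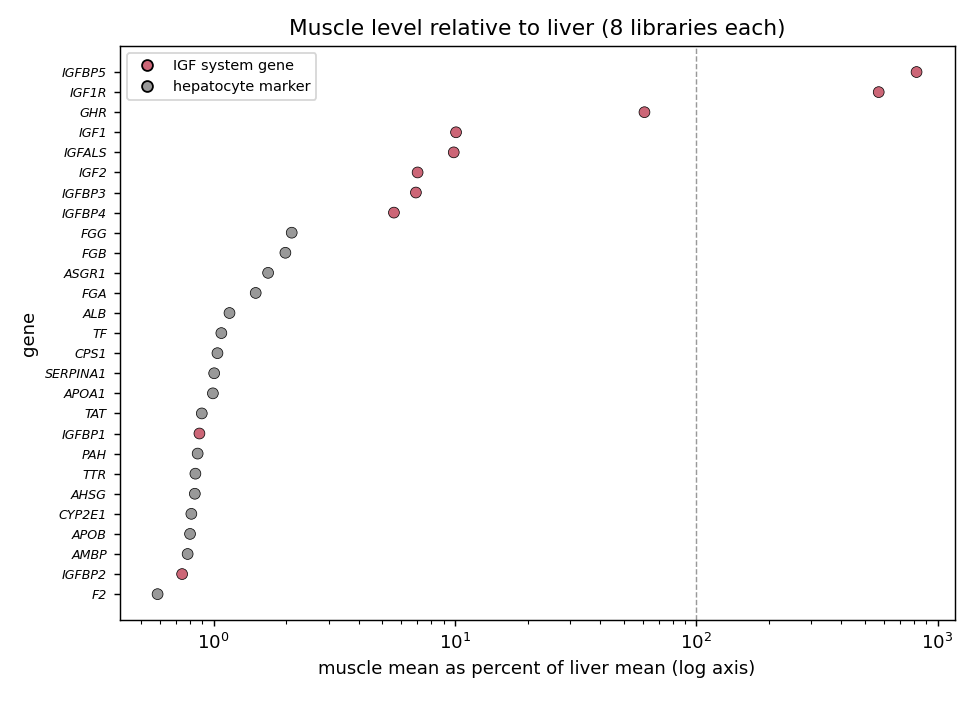
Mean muscle level as a percent of mean liver level (log axis; dashed line at 100) for the 10 IGF system genes and 17 hepatocyte markers, over 8 libraries per tissue. IGFBP1 and IGFBP2 lie among the hepatocyte markers (0.586% to 2.11%), 5 genes lie between 5.59% and 10.1%, and IGF1R and IGFBP5 lie above 100.

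The second question of the design was whether expression differed after prenatal BPA in each tissue. In liver none of the 10 genes passed the adjusted threshold with limma, and neither did any of the 15689 genes tested (0% called). At an unadjusted p under 0.05 there was 1 member, IGFBP5, beside 18.1% of all genes. Estimates were lower in BPA for 6 members and higher for 4, with a median of -0.40 log2 units beside -0.01 over all genes.

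IGFBP5 had the largest liver difference of the 10. It averaged 1692 ± 1283 in controls and 277 ± 277 in BPA (SD, n = 4 each), a difference of -2.79 log2 units (SE 0.69, 95% interval -4.33 to -1.25, unadjusted p 0.0024 and adjusted p 0.26 with limma). The groups overlapped only through the BPA liver 910 (686), which lay just above the control 928 (675), while 918, 977 and 984 lay at or below 205. Among livers with over 15 M reads, the BPA liver 910 minus the mean of the 3 controls was -0.56 log2 units. Among those with fewer reads, the mean of the 3 BPA livers minus 902, the only control there, was -4.73. Without 910 the difference was -3.38 and passed (adjusted p 0.011, with 16.5% of all genes passing). It also passed with DESeq2 (-2.61, adjusted p 0.034, 1.25% of genes) and with all 16 libraries in 1 limma fit (-2.79, adjusted p 0.021, 14.7%), but not with edgeR (-2.65, adjusted p 0.27). The fit of 16 libraries shares 1 estimate of spread between the tissues. For IGFBP5 the coefficient of variation was 116% over livers and 21.0% over muscles, so that p rests partly on the tighter muscle values. IGFBP5 was highest in 902, the liver with the highest fibroblast and stellate sum (122370), and that sum was 2769 to 5899 in BPA livers and 6222 to 8282 in the other controls. The cholangiocyte sum was also highest in 902 (12834). The macrophage and Kupffer cell list (10 of 12) summed to 8131 to 11197 in controls and to 1499 to 7713 in BPA livers, and the endothelial list (10 of 10), which overlapped, to 5881 to 10889 and 5975 to 9720. No gene of these lists was at 0 in any liver. The part of these marker differences in IGFBP5 was not tested.

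IGF1R was the only gene of the 10 whose liver groups did not overlap. It measured 620, 691, 588 and 578 in controls 902, 908, 924 and 928, and 568, 306, 569 and 522 in BPA livers 910, 918, 977 and 984. The gap was narrow, from 578 to 569, and 7.61% of all genes had groups that did not overlap. The IGF1R difference was -0.37 log2 units (95% interval -1.0 to 0.26, adjusted p 0.46 with limma). It was -0.46 without 902 and 910, and -0.16 without 918, the lowest liver.

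The growth hormone arm did not separate by treatment in liver. GHR measured 1217, 3081, 4636 and 6860 in controls 902, 908, 924 and 928, and 5594, 8670, 4195 and 3808 in BPA livers 910, 918, 977 and 984. The controls 902 and 908 lay below every BPA liver and the BPA liver 918 above every control, while the other 5 livers lay between them. The GHR difference was 0.67 log2 units (95% interval -0.56 to 1.91, adjusted p 0.49, limma). It was 0.19 without 902, 0.17 without 902 and 910, 0.44 without 918 and 1.03 without 928. For IGF1 it was -0.70 (-2.02 to 0.61, adjusted p 0.51, limma), and for IGF2 0.30 (-0.96 to 1.57, adjusted p 0.78, limma), turning to -0.10 without 902 and -0.22 without 902 and 910. IGFALS measured 1251 ± 740 in controls and 1117 ± 489 in BPA (SD, n = 4), with an estimate of 0.02 (-1.19 to 1.22, adjusted p 0.99, limma) that became negative with edgeR, with DESeq2 and without 902, 908 or 910. These intervals were too wide to show that treated and control livers were alike.

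IGFBP2, IGFBP3 and IGFBP4 followed the same split of the livers. IGFBP3 measured 627, 5075, 6441 and 6656 in controls 902, 908, 924 and 928, and 7755, 693, 1438 and 1305 in BPA livers 910, 918, 977 and 984. IGFBP4 measured 2065, 10349, 10355 and 9220 in the same controls and 10572, 2411, 4289 and 3871 in the same BPA livers. IGFBP2 measured 1206, 20285, 13350 and 13288 in the controls and 11120, 3542, 4813 and 6913 in BPA livers. For all 3 genes 902 was the lowest of the 8 livers and 910 lay apart from the other BPA livers. The hepatocyte marker sum was also lowest in 902, and in 910 it was above the other BPA livers. It was highest of all livers in 910, as were IGFBP3 and IGFBP4, whereas IGFBP2 in 910 lay below the controls 908, 924 and 928. The part of the hepatocyte markers in these values was not tested.

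The limma differences were -0.94 for IGFBP3 (95% interval -2.96 to 1.09, adjusted p 0.57), -0.57 for IGFBP4 (-2.01 to 0.87, adjusted p 0.63) and -0.43 for IGFBP2 (-2.32 to 1.45, adjusted p 0.79). With both 902 and 910 left out, IGFBP3 (-2.46, adjusted p 0.00076), IGFBP4 (-1.54, adjusted p 0.0024), IGFBP2 (-1.64, adjusted p 0.0037), IGFBP5 (-2.93, adjusted p 0.0013) and IGF1 (-1.48, adjusted p 0.024) passed. In that fit 43.1% of all genes passed, so these 5 of 10 stood close to the background. The 3 remaining controls all had over 15 M reads and the 3 remaining BPA livers all had fewer, so depth and treatment cannot be told apart there. Above 15 M reads, 910 was the only BPA liver, and it minus the control mean was 0.37 log2 units for IGFBP3, 0.09 for IGFBP4 and -0.46 for IGFBP2. Below 15 M reads, 902 was the only control, and the BPA mean minus 902 was 0.80, 0.73 and 2.02. Both contrasts rest on 1 library in 1 arm, the livers that stood apart, and carry no test.

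IGFBP1, the binding protein responsive to fasting, varied widely between animals of the same treatment. It measured 2450, 800, 2964 and 8579 in controls 902, 908, 924 and 928, and 2294, 1218, 9465 and 10325 in BPA livers 910, 918, 977 and 984. High and low livers occurred in both groups, and its coefficient of variation was 91.5% in controls and 81.2% in BPA. The difference was 0.61 log2 units (95% interval -1.30 to 2.53, adjusted p 0.70, limma). It was 0.57 without 902 and 0.85 without 902 and 910. Leaving out 1 liver at a time moved it from 0.036 (without 908) to 1.19 (without 918), with 0.16 without 984, 0.21 without 977 and 1.18 without 928. Unlike IGFBP2 and IGFBP3, IGFBP1 was not lowest in 902 but in 908, the control with the highest IGFBP2.

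**Figure D4:**
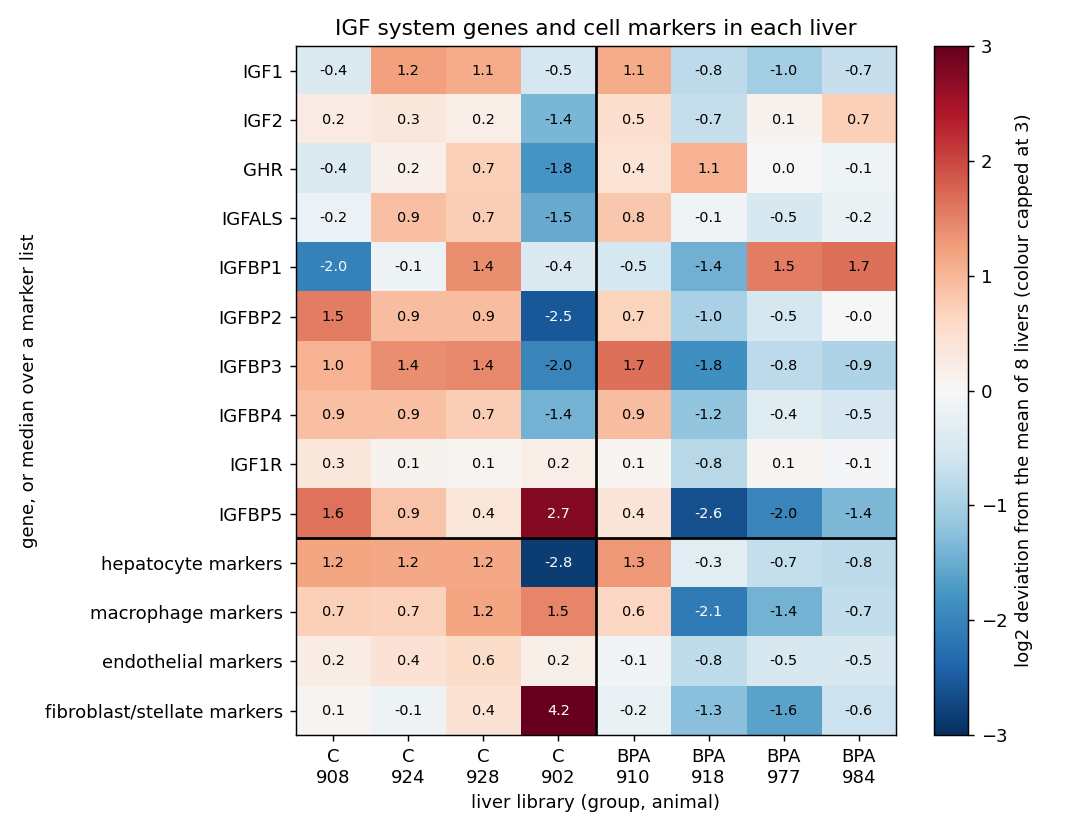
Deviation of each gene from its mean over the 8 livers on the log2 scale (upper rows), and the median deviation of 4 cell marker lists (lower rows), by liver library. IGFBP3 and IGFBP4 are below their means in 902, 918, 977 and 984 as hepatocyte markers are, IGFBP2 is lowest in 902, and IGFBP5 is highest in 902, as fibroblast and stellate markers are.

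In muscle none of the 10 genes passed the adjusted threshold (limma), beside 0.129% of 14706 genes. The coefficient of variation over 8 libraries was lower in muscle than in liver for IGFBP5 (21.0% against 116%), IGFBP3 (26.7% against 80.6%) and IGF1 (22.4% against 68.0%), but about the same for IGFALS (48.9% against 49.4%). At an unadjusted p under 0.05 there was 1 member, IGF2, beside 7.77% of all genes, and 0 members had groups that did not overlap, beside 4.53%. Estimates were lower in BPA for 8 and higher for 2, with a median of -0.22 log2 units beside -0.002 over all genes.

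IGF2 measured 1579, 1445, 992 and 1299 in control muscles 902, 908, 924 and 928, and 1187, 774, 1067 and 1044 in BPA muscles 910, 918, 977 and 984. The controls 902, 908 and 928 were above every BPA value, and the control 924 lay among the BPA values. The difference was -0.38 log2 units (95% interval -0.73 to -0.03, unadjusted p 0.035, adjusted p 0.59, limma). IGFBP3 measured 291, 330, 197 and 356 in the controls and 256, 147, 267 and 224 in BPA muscles, a difference of -0.40 (-0.87 to 0.08, adjusted p 0.71, limma). IGFALS measured 226, 86.0, 82.1 and 182 in the controls and 115, 75.2, 66.0 and 105 in BPA muscles, a difference of -0.57 (-1.28 to 0.14, adjusted p 0.72, limma). In both genes the groups overlapped.

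IGFBP1 averaged 52.4 ± 37.3 in control and 30.9 ± 21.9 in BPA muscle (SD, n = 4), a difference of -0.75 log2 units (95% interval -1.85 to 0.34, adjusted p 0.77, limma). IGFBP2 lay between 42.5 and 150 in control and between 43.7 and 85.8 in BPA muscle, a difference of -0.23 (-1.02 to 0.56, adjusted p 0.92, limma), and turned to 0.15 without 902. The hepatocyte marker sum was lower in BPA muscles too, at 6300 to 12635 against 13026 to 19321 in controls. Its part in the lower estimates of IGFBP1, IGFBP2, IGFALS, IGFBP3 and IGF2 was not tested.

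IGF1R and GHR had the narrowest muscle intervals of the members. IGFBP5 averaged 8683 ± 2074 in control and 7437 ± 1161 in BPA muscle (SD, n = 4), a difference of -0.21 log2 units (95% interval -0.57 to 0.16, adjusted p 0.80, limma). IGF1R averaged 3120 ± 299 and 3215 ± 360, a difference of 0.04 (-0.19 to 0.27, adjusted p 0.94, limma). GHR averaged 2997 ± 118 and 2812 ± 248, a difference of -0.10 (-0.28 to 0.09, adjusted p 0.82, limma). For IGF1R and GHR the intervals left room for changes of at most 0.28 log2 units in either direction. IGF1 averaged 168 ± 25.1 and 168 ± 51.5 with an interval of -0.47 to 0.40 (its sign changed with edgeR and DESeq2), and IGFBP4 361 ± 78.2 and 382 ± 116 with an interval of -0.42 to 0.53.

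**Figure D5:**
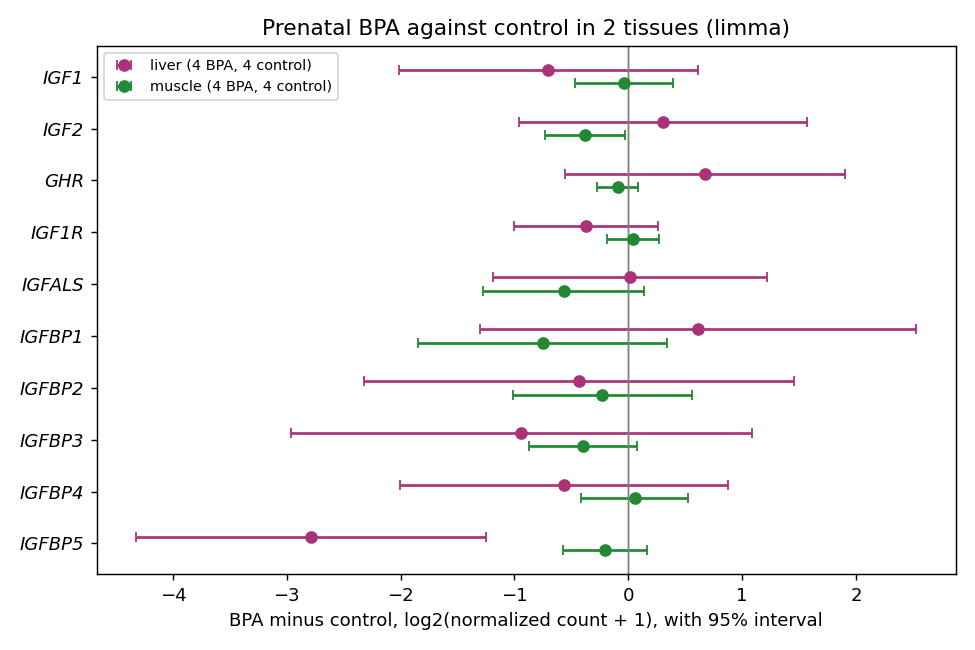
BPA minus control difference of each gene on the log2(normalized count + 1) scale, with 95% intervals, in liver and in muscle (4 BPA and 4 control libraries each). Liver intervals are wide, that of IGFBP5 (-4.33 to -1.25) lies below 0, and in muscle only that of IGF2 (-0.73 to -0.03) excludes 0; neither passed after adjustment over all genes.

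The effect of BPA was also compared between the tissues. None of the 10 genes passed for this difference with limma, nor did any of 13677 genes (0%). IGFBP5 was the only member at an unadjusted p under 0.05, beside 19.5% of all genes: its BPA effect in liver minus that in muscle was -2.59 log2 units (SE 0.77, unadjusted p 0.0041, adjusted p 0.19). Without animal 910 it passed (-3.23, adjusted p 0.0046), as did 22.1% of all genes. This comparison also used 1 estimate of spread for both tissues, although IGFBP5 varied more over livers than over muscles. For IGFBP1 the difference was 1.36 (95% interval -0.93 to 3.66) and for GHR 0.77 (-0.42 to 1.96).

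Other genes of growth hormone and IGF action were taken from a list of 45 present in the table. Of these, 38 were tested between tissues, and 10 passed as higher in liver and 17 as higher in muscle (limma, adjusted p under 0.05), beside 36.1% and 35.3% of all genes. In growth hormone signalling, the transcription factors STAT5A (-1.92 log2 units) and STAT5B (-3.54) and the feedback inhibitor SOCS1 (-0.65) were higher in muscle. The feedback inhibitors SOCS2 (2.10) and SOCS3 (1.58) and the phosphatase PTPN6 (2.04) were higher in liver. STAT5B lay between 394 and 600 in liver and between 4338 and 7989 in muscle.

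Downstream of IGF1R, 9 of 16 listed adaptor and kinase genes were higher in muscle and 2 in liver, beside the same shares of all genes. The 16 include PDK1, a pyruvate dehydrogenase kinase outside this pathway, which did not pass (-0.24). Higher in muscle were the receptor substrates IRS1 (-1.32) and IRS2 (-1.12), the receptor-binding inhibitor GRB10 (-2.02), the kinase genes PIK3CA (-0.74), PDPK1 (-0.87), AKT1 (-0.59) and MTOR (-0.43), and the transcription factors FOXO1 (-0.67) and FOXO3 (-1.24). Higher in liver were the adaptor SHC1 (0.81) and GRB14 (5.93), another receptor-binding inhibitor. GRB10 and GRB14, which are close relatives, thus differed in opposite directions, with GRB10 at 650 to 1403 in liver and 2908 to 4438 in muscle.

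Among proteases and their inhibitors, pappalysin PAPPA (3.23), which cuts IGFBP4, and the metalloproteases ADAM12 (2.95) and ADAM28 (3.39) were higher in liver. The pappalysin inhibitor STC2 (-1.37) and the serine protease HTRA1 (-1.23) were higher in muscle. Of the remaining genes, the IGF2 scavenger receptor IGF2R (0.67) was higher in liver, and IGFBP6 (-2.14), the IGF2 mRNA-binding protein IGF2BP2 (-0.91) and the IGF2 activator PLAG1 (-1.48) were higher in muscle.

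Under BPA, 0 of 41 listed genes passed in liver, 0 of 36 in muscle and 0 of 36 for the difference between tissues (limma). At an unadjusted p under 0.05 there were 7, 2 and 5, beside 18.1%, 7.77% and 19.5% of all genes, so none of these counts stood above the background. The smallest p in liver belonged to GRB14, which measured 234, 232, 176 and 271 in controls 902, 908, 924 and 928, and 444, 2232, 657 and 1118 in BPA livers 910, 918, 977 and 984. Every BPA liver lay above every control, including both livers that stood apart, and the difference was 2.03 log2 units (SE 0.46, adjusted p 0.26, limma). Groups did not overlap in liver for 7 of the 41 listed genes, beside 7.61% of all genes. ADAM28 had the next smallest p, with 22.7 to 285 in controls and 2.08 to 10.1 in BPA livers (-3.0, SE 0.80, adjusted p 0.26, limma), the BPA values resting on 1 to 12 reads.

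IGFBP6 and IGFBP7, looked at after their values were seen, had lower estimates in BPA liver like IGFBP5. IGFBP7 measured 1475, 1160, 970 and 1096 in controls 902, 908, 924 and 928, and 965, 214, 388 and 410 in BPA livers 910, 918, 977 and 984 (-1.44, SE 0.43, adjusted p 0.26, limma). IGFBP6 measured 268, 86.7, 118 and 140 in the controls and 89.4, 16.7, 12.5 and 39.5 in BPA livers (-2.21, SE 0.61, adjusted p 0.26, limma). For IGFBP7, 910 (965) lay just below the lowest control (970), so the groups did not overlap, as for 7.61% of all genes. For IGFBP6, 910 (89.4) lay between the controls 908 and 924. Both genes had an unadjusted p under 0.05 (limma), as did 18.1% of all genes. The IGFBP6 values of 918 and 977 rested on 8 and 10 reads. The part of the cell marker differences between livers in IGFBP6 and IGFBP7 was not tested.

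In muscle the smallest p among listed genes belonged to STC2, with 41.4, 134, 38.7 and 32.7 in controls 902, 908, 924 and 928, and 21.2, 26.1, 35.1 and 21.1 in BPA muscles 910, 918, 977 and 984 (-1.0, SE 0.39, adjusted p 0.55, limma). JAK2, the kinase bound to GHR, measured 240 to 280 in control and 272 to 360 in BPA muscle (0.26, SE 0.11, adjusted p 0.59, limma). For the difference between tissues SOCS1 (-1.23, SE 0.38) and IGFBP6 (-2.14, SE 0.70) had the smallest p (adjusted p 0.19 and 0.20, limma). SOCS1 lay between 32.0 and 49.5 in control and between 16.7 and 26.7 in BPA liver, without overlap, as for 7.61% of all genes in liver. The SOCS1 values rested on 17 reads in control liver 902 and on 8 and 17 in BPA livers 918 and 977. In muscle the SOCS1 groups overlapped (29.3 to 52.3 and 36.8 to 64.9). IGFBP6 overlapped in both tissues.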

How the data were processed

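The deposited table gives a normalized signal per gene, which the authors made by dividing read counts by 1 size factor per library. DESeq2 1.24.0, FastQC and Trimmomatic are named per the submitters' processing notes. Not given in the sources used here were genome build, strandedness, annotation, aligner and read counter. Whether reads of overlapping antisense genes were told apart is therefore not known. Each column consists of whole multiples of 1 step, and at least 99.986% of values per library were whole reads within 0.1 read. These reads fed edgeR 4.0.16 and DESeq2 1.42.0 as alternatives. The main test was limma 3.58.1 (R 4.3.3) with eBayes and an intensity trend on log2(value + 1), a scale that understates changes of low genes. It was fitted per tissue, or over 4 groups for both tissues, on all genes with a mean of at least 10 in the libraries compared (in each tissue for the difference of BPA effects), with Benjamini-Hochberg adjustment over all genes tested and a threshold of 0.05. All 10 members passed this filter in every comparison. Of LOC names, 406 were given a current symbol from RefSeq (ARS-UI_Ramb_v3.0), which was used for names and gene order only.

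The members, gene lists and alternatives were chosen with earlier results of these data known. Named genes were all 10 members and, of the listed pathway genes, those past the threshold or else the 2 with the smallest p. Of the 49 listed, 45 were in the table, and 1 of these is counted but not reported by name here. Liver and muscle with the same animal number come from 1 sheep, per the labels, which makes a paired design. Over 13677 genes, the correlation between the deviations of a sheep's liver and muscle was -0.10 to 0.12. On simulated data, limma recovered 75.3% of 97 changes of 2-fold and 97.9% of 96 of 4-fold in muscle (14574 genes). In liver (15419 genes) it recovered 0% of 98 and 7.37% of 95.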

Additional observations from a re-analysis of the deposited data

Results flagged for a closer look

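In 4 of the 40 sets of 4 libraries (10 genes in 4 groups), 1 library lay far from the other 3 by Dixon's criterion. The criterion was applied to the normalized counts and not on the log2 scale of the tests. Chance meets it in about 1 of 20 sets when values are normal and sets independent, but these sets shared libraries. IGF2 (5960) and IGFBP4 (2065) were low in the control liver 902, the next control being at 17626 and 9220. IGF1 (2925) and IGFBP3 (7755) were high in the BPA liver 910, the next BPA liver being at 837 and 1438. All 4 were liver sets, and no muscle set met the criterion. Hepatocyte markers summed to 97410 in 902 and 1.78e+06 in 910, and their part was not tested.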

How the results depend on the processing

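The tissue differences of the 9 genes that passed kept their direction and call under each alternative run. Over all 10 genes and 4 comparisons, 621 alternative values kept direction and side of the threshold, 12 passed newly and 27 changed sign, none of these sign changes in a value past the threshold. In liver under BPA, 196 genes (1 member, IGFBP5) passed with DESeq2, 2299 (1 member) with all 16 libraries in 1 fit, and 6594 (5 members) without 902 and 910. Leaving out 1 liver at a time gave 0 to 2595 genes and 0 to 1 members, the high values without 910. In muscle 131 genes passed with DESeq2, 0 in 1 fit of all libraries and 11 to 31 without 1 library. For the difference of BPA effects, 148 passed with DESeq2 and 0 to 3020 (0 to 1 members) without 1 animal. The 1 fit of all libraries shares 1 estimate of spread between the tissues. At an unadjusted p under 0.05 it gave 5542 genes in liver and 188 in muscle, against 2838 and 1142 in the main fits (limma). The cause of these changes in count was not tested. IGFALS in liver was -0.18 with edgeR, -0.15 with DESeq2 and -0.75 without 902 and 910, where IGF2 was -0.22; IGF1 in muscle was 0.020 with edgeR and 0.0080 with DESeq2. When a covariate for libraries over or under 15 M reads was added, an alternative chosen after seeing the data, IGF1 (0.074), IGFBP2 (0.78), IGFBP3 (0.58) and IGFBP4 (0.41) changed sign in liver. Without 1 library, ranges that crossed 0 were -0.10 to 0.59 (IGF2), -0.49 to 0.32 (IGFALS) and -1.35 to 0.0084 (IGFBP2) in liver, -0.22 to 0.12 (IGF1), -0.022 to 0.12 (IGF1R), -0.45 to 0.15 (IGFBP2) and -0.11 to 0.26 (IGFBP4) in muscle, and, without 1 animal, -0.18 to 1.11 (IGFALS) and -1.50 to 0.26 (IGFBP2) for the difference. Between tissues edgeR and DESeq2 placed the median of all genes at 0.20 and 0.15, against 0.06 with limma. With the replicate block (paired tissues of an animal) 11091 genes passed between tissues, against 11420 without it, and IGFBP5 stayed at -3.91; the block changed no call of a member. Liver libraries of 4.39 to 10.64 M reads and the spread between livers limit what liver can show.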

Other observations

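For 5 of the genes the closest expression patterns were described over the 8 libraries of the tissue with the higher level, by Pearson correlation of log2(value + 1) among genes with a mean of at least 10. These libraries share depth and tissue make-up differences, so the values are descriptions of these 8 libraries. In liver, IGF1 was closest to KIAA1143 (r = 0.97), ZNF652 (0.95) and TRIP6 (0.94), and IGF2 to FOXA1 (0.99), ACP2 (0.98) and GUCD1 (0.98). IGFBP3 was closest to C20H6orf89 (0.998), RNF167 (0.996) and SFXN2 (0.993), and IGFBP1 to ST5 (0.96), RNF39 (0.95) and CASZ1 (0.93). In muscle, IGFBP5 was closest to BTC (0.96), RNF181 (0.95) and EMC10 (0.94).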
